A study of Homo sapiens with 18 samples.

Results

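The SP5 mutant clones dZF1 and dZF2 were compared with WT Rep. 2 after 12 h of 1 nM Wnt3a, with 1 RNA-Seq library for each of the 3 lines, so these are 3 of the 18 samples of the series. All 3 are H1 lines grown in E8 medium. H1 is an established line of human embryonic stem cells (hESCs), and its SP5 gene is unedited in WT Rep. 2. Both clones came from single cells after CRISPR-Cas9 editing and lost, on both alleles, the sequence that encodes the zinc-finger domain of SP5, with which the protein binds DNA. Immunoblotting in the study showed a truncated SP5 protein at a reduced level, and each clone is a single line, so effects of SP5 and of cloning cannot be told apart here. The comparison covers the 497 genes of the deposited table, taken from a list that the study chose for their response to Wnt3a in a first WT series. Libraries of the same 3 lines at 0 h, which received buffer in place of Wnt3a, show which differences were there before treatment.

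Wnt3a is a ligand that stabilises β-catenin, which enters the nucleus and activates genes together with TCF/LEF factors. In hESCs it starts differentiation toward primitive streak and mesendoderm, marked by genes such as T, EOMES and MIXL1 and by the TGF-β family ligand NODAL. SP5 is a zinc-finger factor of the SP/KLF family that binds GC-rich sequence, and its gene is itself a direct target of the pathway, as are the genes of several inhibitors that feed back on WNT signaling.

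Each value in the table is an RPKM divided by the highest RPKM that WT Rep. 2 reached for that gene at 0, 12, 24 or 48 h, so WT Rep. 2 has a maximum of 1 and a clone can exceed it. Values of different genes are therefore not levels that can be ranked against each other. Ratios are the log2 of the value plus 0.05 in a clone minus that in WT Rep. 2 at the same time. A gene is called higher or lower where both clones differed at least 2-fold (1 on the log2 scale) in the same direction. With 1 library a line there is no replicate of a line and no test, and even with the clones taken as replicates of 1 group, 3 libraries cannot give a permutation p below 0.33. The distance between the clones is the only measure of spread. The depth of the libraries is unknown because the table holds no counts.

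At 12 h, 17 of 497 genes (3.42%) were at least 2-fold higher in both clones, and 19 (3.82%) were at least 2-fold lower. The higher genes included SP5 itself, the mesendoderm genes NODAL, EOMES and MIXL1, the WNT inhibitor DACT1 and the MAPK phosphatase DUSP6. With a pseudocount of 0.2 in place of 0.05 the calls drop to 5 higher and 9 lower genes, and SP5, NODAL, EOMES and MIXL1 are no longer called. The lower genes included the immediate early factor EGR1, the growth factor FGF4, the pluripotency factor PRDM14, the BMP target ID1 and the zinc-finger genes ZNF578 and ZNF600. At 0 h the same rule called 11 genes higher (2.21%) and 14 lower (2.82%). Taken alone, dZF1 was 2-fold higher than WT Rep. 2 for 29 genes (5.84%) and lower for 34 (6.84%), and dZF2 was higher for 33 (6.64%) and lower for 40 (8.05%). No gene of the 497 was 2-fold higher in 1 clone and 2-fold lower in the other. Regardless of size, 182 genes (36.6%) were higher and 215 (43.3%) lower in both clones, against 164 (33.0%) and 211 (42.5%) at 0 h.

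The clones were closer to each other than to WT Rep. 2. The median size of the log2 ratio over the 497 genes was 0.38 for dZF1 against WT Rep. 2, 0.40 for dZF2 against WT Rep. 2 and 0.22 between the clones. At 0 h these medians were 0.32, 0.39 and 0.23. For 264 genes (53.1%) at 12 h the gap from WT Rep. 2 to the nearer clone exceeded the distance between the clones, 132 with the clones higher and 132 with the clones lower. All 36 called genes were among them, which the rule of 2-fold in both clones favours, so nothing is read from it. HAS2, which makes hyaluronan, stood just inside the threshold with log2 ratios of 1.00 in dZF1 and 1.86 in dZF2, and NTN1, a guidance cue, with -1.0 and -1.13. Just outside were FAM111B with 1.01 and 0.98, and IDO1, which breaks down tryptophan, with -0.99 and -1.39.

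**Figure D1:**
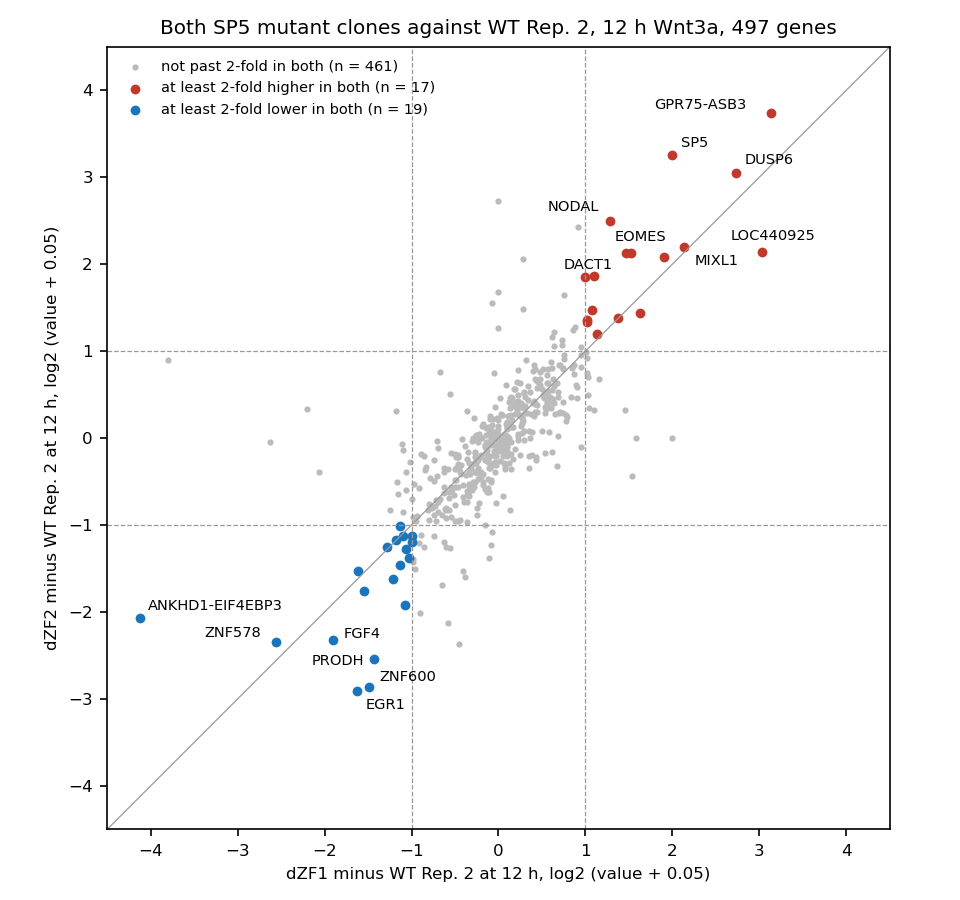
Log2 ratio to WT Rep. 2 at 12 h of Wnt3a in dZF1 (x axis) and dZF2 (y axis), each as the difference of log2 (value + 0.05), for 497 genes with 1 library a line; dashed lines mark 2-fold and the diagonal equal ratios. The 17 red genes (upper right) and 19 blue genes (lower left) pass 2-fold in both clones, no gene passes it in opposite directions, and the ratios of GPR75-ASB3, LOC440925, MIXL1 and APLNR are set by the 0.05 because WT Rep. 2 is at 0.

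All of these ratios share the single WT Rep. 2 library at 12 h, and that library stood close to its own 0 h library for many Wnt3a targets. Whether the library and its time are as labelled was not tested, and every difference at 12 h carries that doubt. In the first WT series, whose values were scaled separately, 68 of the 497 genes (13.7%) were at least 2-fold higher at 12 than at 0 h on the log2 (RPKM + 1) scale. These 68 genes had a median log2 change of 1.41 in that series, which chose them, on the log2 (value + 0.05) scale. Their median change in WT Rep. 2 was 0.19, below that of dZF1 (0.40) and that of dZF2 (0.58). At least 2-fold higher at 12 h were 7 of the 68 in WT Rep. 2, against 18 for dZF1 and 21 for dZF2. Over all 497 genes 20 (4.02%), 28 (5.63%) and 29 (5.84%) were, and 10 (2.01%), 9 (1.81%) and 13 (2.62%) were at least 2-fold lower at 12 h, in the same order of lines. Single targets varied in WT Rep. 2. AXIN2, the classical feedback target of β-catenin, went from 0.87 at 0 h to 1.00 at 12 h in WT Rep. 2, from 0.57 to 0.71 in dZF1 and from 0.57 to 0.66 in dZF2. TCF7, a TCF/LEF factor, went from 0.52 to 1.00 in WT Rep. 2, from 0.55 to 0.77 in dZF1 and from 0.47 to 0.84 in dZF2. WNT3, a ligand gene of the pathway, went from 0.08 to 0.24, from 0.05 to 0.28 and from 0.03 to 0.38 in the same order.

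**Figure D2:**
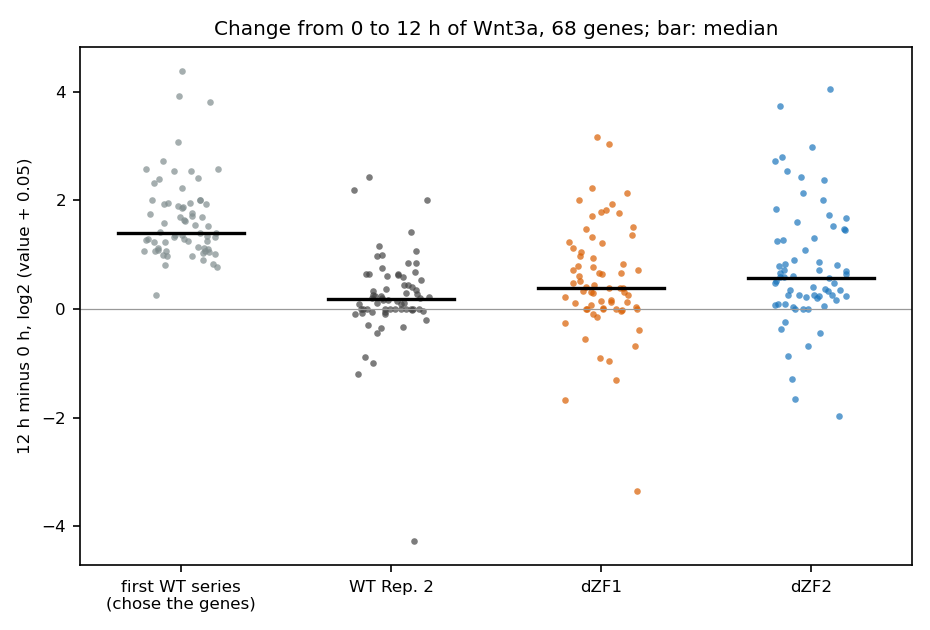
Change from 0 to 12 h of Wnt3a, as the difference of log2 (value + 0.05) on the y axis, for the 68 genes raised in the first WT series, in each of the 4 series; a point is a gene and a bar the median. Medians are 1.41 in the first WT series, which chose the genes, 0.19 in WT Rep. 2, and 0.40 and 0.58 in the clones.

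SP5, NODAL and EOMES were within 0.5 of WT Rep. 2 on the log2 scale in both clones at 0 h and above it at 12 h. Their 0 h values were at most 0.05 in every line, so the pseudocount of 0.05 largely sets those 0 h ratios. SP5 stood at 0.02 in WT Rep. 2 at both times, while dZF1 went from 0.01 to 0.23 and dZF2 from 0.00 to 0.62. The log2 ratios at 12 h were 2.0 for dZF1 and 3.26 for dZF2. Reads from shortened SP5 transcripts enter this value as well, so it cannot tell a mutant library from a WT one. NODAL, a ligand that maintains itself through SMAD signaling, was 0.04, 0.05 and 0.05 at 0 h and 0.09, 0.29 and 0.74 at 12 h, in the order WT Rep. 2, dZF1 and dZF2, with log2 ratios of 1.28 and 2.50. EOMES, a T-box factor of mesendoderm, was 0.00, 0.01 and 0.00 at 0 h and 0.03, 0.18 and 0.30 at 12 h, with log2 ratios of 1.52 and 2.13. For all 3 genes dZF2 stood above dZF1 and both clones stood above WT Rep. 2. MIXL1, a homeobox factor of the primitive streak, was listed at 0 in WT Rep. 2 at both times. It went from 0.00 to 0.17 in dZF1 and from 0.09 to 0.18 in dZF2, and no fold is given because WT Rep. 2 is at 0.

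The other measured mesendoderm genes did not follow as a block. Of 10 measured genes of the 16 on this list, which includes SP5, 4 were higher in both clones and all 4 were called, 2 were lower in both, and the median of the mean log2 ratio was 0.82, against -0.02 over the 497 genes. Because several members are at or near 0, that median depends on the pseudocount, with 0.30 at 0.2 and 1.76 at 0.01. The list was chosen with earlier results of these data known, so its median is a description only. APLNR, the apelin receptor of early mesoderm, was listed at 0 in WT Rep. 2 at 12 h and was 0.08 in both clones, but the clones were already at 0.13 and 0.05 at 0 h with WT Rep. 2 at 0. T, the Brachyury gene, divided the clones: at 12 h WT Rep. 2 had 0.18, dZF1 0.00 and dZF2 0.24, and dZF1 alone had a value of 0.46 at 0 h. GSC, an organizer factor, was above 0 at 12 h in dZF2 alone, at 0.07 after 0.05 at 0 h, and the pioneer factor FOXA2 likewise, at 0.11. LHX1 was 0.02 in WT Rep. 2 and 0.00 in both clones. Among 10 measured definitive endoderm genes none was called, and SOX17 and CER1 were listed at 0 in all 3 libraries. The median of that list was 0.00. On the list of 7 measured NODAL pathway genes, 5 were higher in both clones, 0 were lower and 1 (NODAL) was called. The NODAL inhibitor LEFTY1 was 0.08, 0.15 and 0.24, and its relative LEFTY2 was 0.13, 0.16 and 0.26. GDF3, a TGF-β family ligand, was 0.15, 0.26 and 0.27. For these 3 genes both clones stood above WT Rep. 2, and the log2 ratio passed 1 only for LEFTY1 in dZF2, at 1.16.

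Among the inhibitors that feed back on WNT signaling, 9 of 14 were measured, 5 were higher in both clones and 3 lower, and 2 were called, with a median of 0.51. Relative to each line's own 0 h library the median of this list was -0.05. The called genes were SP5 and DACT1, whose product binds Dishevelled. DACT1 was 0.22, 0.41 and 0.54 at 0 h and 0.34, 1.03 and 1.66 at 12 h, with log2 ratios of 1.47 and 2.13, so both clones exceeded the highest value of WT Rep. 2 at any time. NKD1, another Dishevelled binder, was 0.50, 1.01 and 0.69 at 0 h and 0.67, 1.01 and 1.14 at 12 h. APCDD1, a membrane inhibitor, was 0.22, 0.36 and 0.31 at 12 h and 0.22, 0.11 and 0.20 at 0 h. AXIN2 went the other way: both clones lay below WT Rep. 2 at 12 h, with log2 ratios of -0.47 and -0.56, as they did at 0 h with -0.57 in each. DKK1 and DKK4, secreted inhibitors of LRP coreceptors, were at most 0.02 in any of the 3 libraries at 12 h. None of the 9 measured ligands, receptors and effectors of the pathway was called, and their median was -0.28. WLS, which carries WNT ligands to the cell surface, was the nearest to the threshold on the higher side, at 0.13, 0.28 and 0.25.

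**Figure D3:**
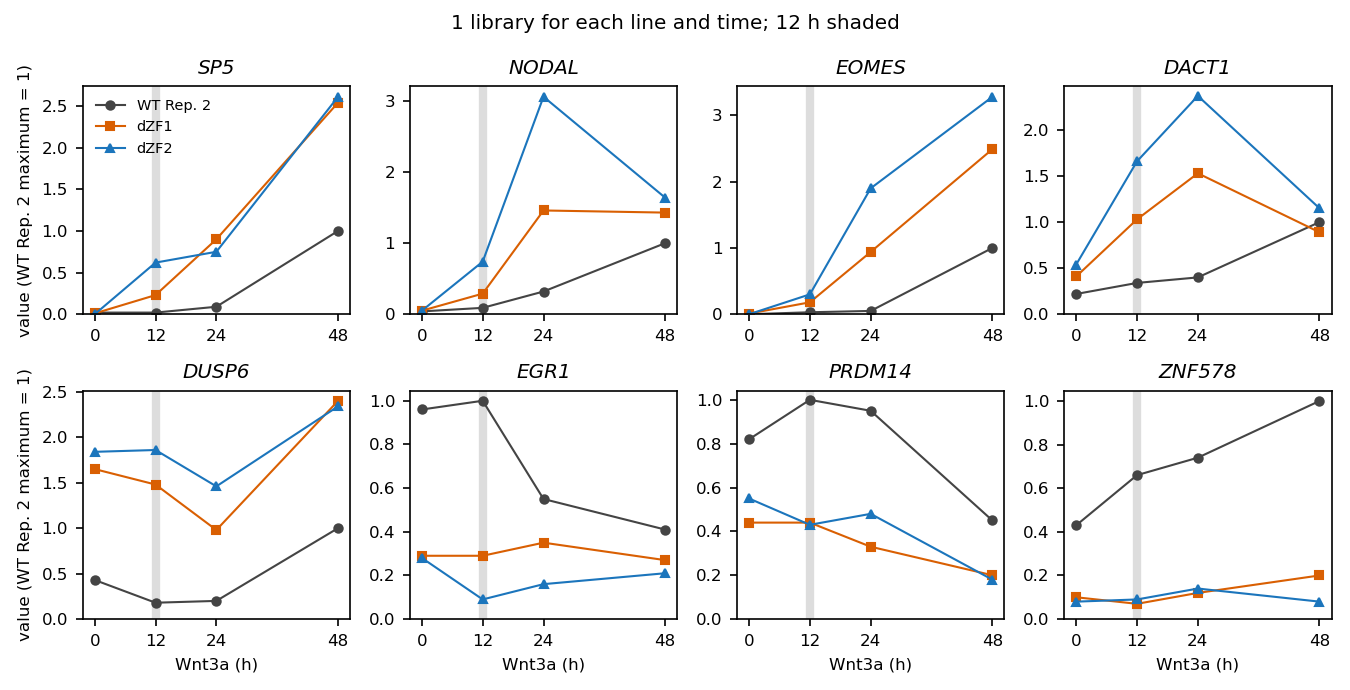
Values of 8 genes (y axis, RPKM as a fraction of the WT Rep. 2 maximum) against hours of Wnt3a (x axis) in WT Rep. 2, dZF1 and dZF2, with 1 library a point and 12 h shaded. SP5, NODAL and EOMES are at or below 0.05 in every line at 0 h and part at 12 h. DUSP6 (higher in the clones) and EGR1, PRDM14 and ZNF578 (lower) are apart at 0 h already.

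DUSP6 and other genes of FGF and ERK signaling differed in both directions. DUSP6 encodes a phosphatase that inactivates ERK and is itself induced by ERK. WT Rep. 2 went from 0.43 at 0 h to 0.18 at 12 h, dZF1 from 1.65 to 1.48 and dZF2 from 1.84 to 1.86. The log2 ratios at 12 h were 2.73 and 3.05, a mean of 7.43-fold on the value plus 0.05 scale, and at 0 h they were 1.82 and 1.98. The wider gap at 12 h came with a lower WT Rep. 2 value, while the clones moved little. IL17RD, a membrane inhibitor of FGF receptors also called SEF, was 0.25, 0.49 and 0.57 at 0 h and 0.27, 0.60 and 0.76 at 12 h. DUSP4, a nuclear phosphatase of the same family, was level at 0 h (0.30, 0.31 and 0.27) and was 0.26, 0.55 and 0.55 at 12 h, just short of 2-fold with log2 ratios of 0.95 in both clones.

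EGR1, which growth factors induce within minutes, was 0.96, 0.29 and 0.28 at 0 h and 1.00, 0.29 and 0.09 at 12 h. Its log2 ratios were -1.63 and -2.91. FGF4, a ligand of the pluripotent state, was 0.52, 0.10 and 0.59 at 0 h and 1.00, 0.23 and 0.16 at 12 h, with log2 ratios of -1.91 and -2.32, and dZF2 was not below WT Rep. 2 at 0 h. The receptors FGFR2 (1.00, 0.64 and 0.54) and FGFR3 (1.00, 0.49 and 0.32) were lower in both clones at 12 h without passing 2-fold in dZF1. On this list 12 of 17 genes were measured, 6 were higher and 5 lower in both clones, 2 were called in each direction and the median was 0.07.

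The remaining higher genes have varied functions. HAS2 was 0.03, 0.11 and 0.24 at 12 h, and CYP1B1, a cytochrome that oxidises retinol and other substrates, was 0.37, 0.87 and 0.91. AMOTL1, which binds YAP at junctions, was 0.30, 0.66 and 0.85, and all 4 measured genes on the list of YAP/TEAD targets were higher in both clones, with AMOTL1 alone called and a median of 0.40. KCNE3, a potassium channel subunit, was 0.09, 0.25 and 0.46, and GMPR, a purine salvage enzyme, was 0.16, 0.60 and 0.52. BDKRB2, a bradykinin receptor, was 0.04, 0.14 and 0.20. FAM159B was 0.07, 0.40 and 0.46 after 0.45, 0.66 and 0.41 at 0 h, so WT Rep. 2 was lower at 12 than at 0 h. LOC440925 was listed at 0 in all 3 lines at 0 h and in WT Rep. 2 at 12 h, when dZF1 had 0.36 and dZF2 0.17. GPR75-ASB3, listed at 0 in WT Rep. 2 at 12 h with 0.39 and 0.62 in the clones, is a read-through transcript whose reads are shared with GPR75 and ASB3, so its values are uncertain.

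Genes of the undifferentiated state were lower or higher in the clones depending on the gene. PRDM14, a repressor that upholds human pluripotency, was 0.82, 0.44 and 0.55 at 0 h and 1.00, 0.44 and 0.43 at 12 h, with log2 ratios of -1.10 and -1.13. DNMT3B, a de novo DNA methyltransferase, was 1.00, 0.69 and 0.66 at 12 h, and SOX2 was 0.81, 0.71 and 0.54. The telomere factor TERF1 was 1.00, 0.62 and 0.52. POLR3G, an RNA polymerase III subunit of stem cells, was higher in both clones at 0.92, 1.38 and 1.46. Of 7 measured genes on the pluripotency list 3 were higher and 4 lower in both clones, 1 was called and the median was -0.36. Since each value is relative to the gene's own WT Rep. 2 maximum, these values do not check the label of the cells as hESCs. POU5F1 and NANOG were not analysed here. The 7 trophoblast markers listed were not analysed here, and of 6 fibroblast markers COL1A2 (0.65, 0.67 and 0.79) and THY1 (0.68, 1.06 and 1.29), which hESCs also express, were measured. Both were higher in both clones, as THY1 was at 0 h (0.68, 1.02 and 1.41), and their part in the other differences was not tested.

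ID1, a helix-loop-helix inhibitor induced by BMP, was 1.00, 0.56 and 0.44 at 0 h and 0.83, 0.35 and 0.27 at 12 h. BMP2, a ligand of that pathway, was 0.26, 0.30 and 0.10 at 0 h and 0.41, 0.18 and 0.15 at 12 h. The relative ID3 stood above WT Rep. 2, at 0.49, 0.79 and 1.21, while ID4 stood below it, at 0.70, 0.48 and 0.39, so the ID genes did not move together. Of 9 measured genes of the BMP list, 3 were higher and 4 lower in both clones, 2 were called lower and the median was -0.04.

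ZNF578 and ZNF600 were 2 of the 9 measured ZNF genes and the 2 of that list that were called. Of the 9, 7 were lower and 2 higher in both clones, with a median of -0.34. ZNF578 was 0.43, 0.10 and 0.08 at 0 h and 0.66, 0.07 and 0.09 at 12 h, and it stayed at or below 0.20 in both clones at every time. ZNF600 was 0.43, 0.16 and 0.11 at 0 h and 0.68, 0.21 and 0.05 at 12 h. The genes lie on GRCh37 at chr19:52956806-53020135 (ZNF578, plus strand) and chr19:53253195-53290060 (ZNF600, minus strand). ZNF611, at chr19:53206066-53238326 between them, was 1.00, 0.71 and 0.85 at 12 h and was not called. These genes belong to a family of related zinc-finger genes, so reads may be shared among them and their values are uncertain.

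Lower genes of the cytoskeleton and other functions were mostly low at 0 h too. FLNC, a filamin that crosslinks actin, was 0.97, 0.36 and 0.33 at 0 h and 1.00, 0.31 and 0.26 at 12 h, and the scaffold gene AHNAK was 0.42, 0.18 and 0.13 at 12 h. PRODH, a proline dehydrogenase whose reads may be shared with a pseudogene copy, was 1.00, 0.34 and 0.13 at 12 h, and SERPINB9, an inhibitor of granzyme B, was 0.69, 0.27 and 0.19. The ion channel genes KCNG3 (1.00, 0.38 and 0.39) and KCNV1 (0.14, 0.04 and 0.00) were also lower. TP53I11, HRASLS5, MN1 and HHLA1 completed the list, with mean log2 ratios of -1.17, -1.18, -1.07 and -1.57. ANKHD1-EIF4EBP3, a second read-through transcript with uncertain values, was 1.00, 0.01 and 0.20.

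Part of the 12 h difference was present at 0 h. Of the 17 higher genes, 2 were already 2-fold higher at 0 h (DUSP6 and APLNR), 5 were within 0.5 of WT Rep. 2 on the log2 scale in both clones (SP5, LOC440925, NODAL, EOMES and BDKRB2), and 10 were in between. The 0 h values of SP5, LOC440925, NODAL and EOMES were at most 0.05 in every line, so the pseudocount largely sets their place near WT Rep. 2. Of the 19 lower genes, 8 were already 2-fold lower at 0 h, 11 were in between and none was within 0.5 in both clones. The 8 were ANKHD1-EIF4EBP3, PRODH, ZNF578, SERPINB9, NTN1, EGR1, ZNF600 and FLNC. Over all 497 genes 11 (2.21%) were 2-fold higher and 14 (2.82%) 2-fold lower in both clones at 0 h. The gap to WT Rep. 2 was wider at 12 than at 0 h in both clones for 16 of the 17 higher genes, all but APLNR, and for 13 of the 19 lower genes. Genes chosen for a gap at 12 h will tend to have a smaller gap at any other time, so nothing is read from these counts.

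**Figure D4:**
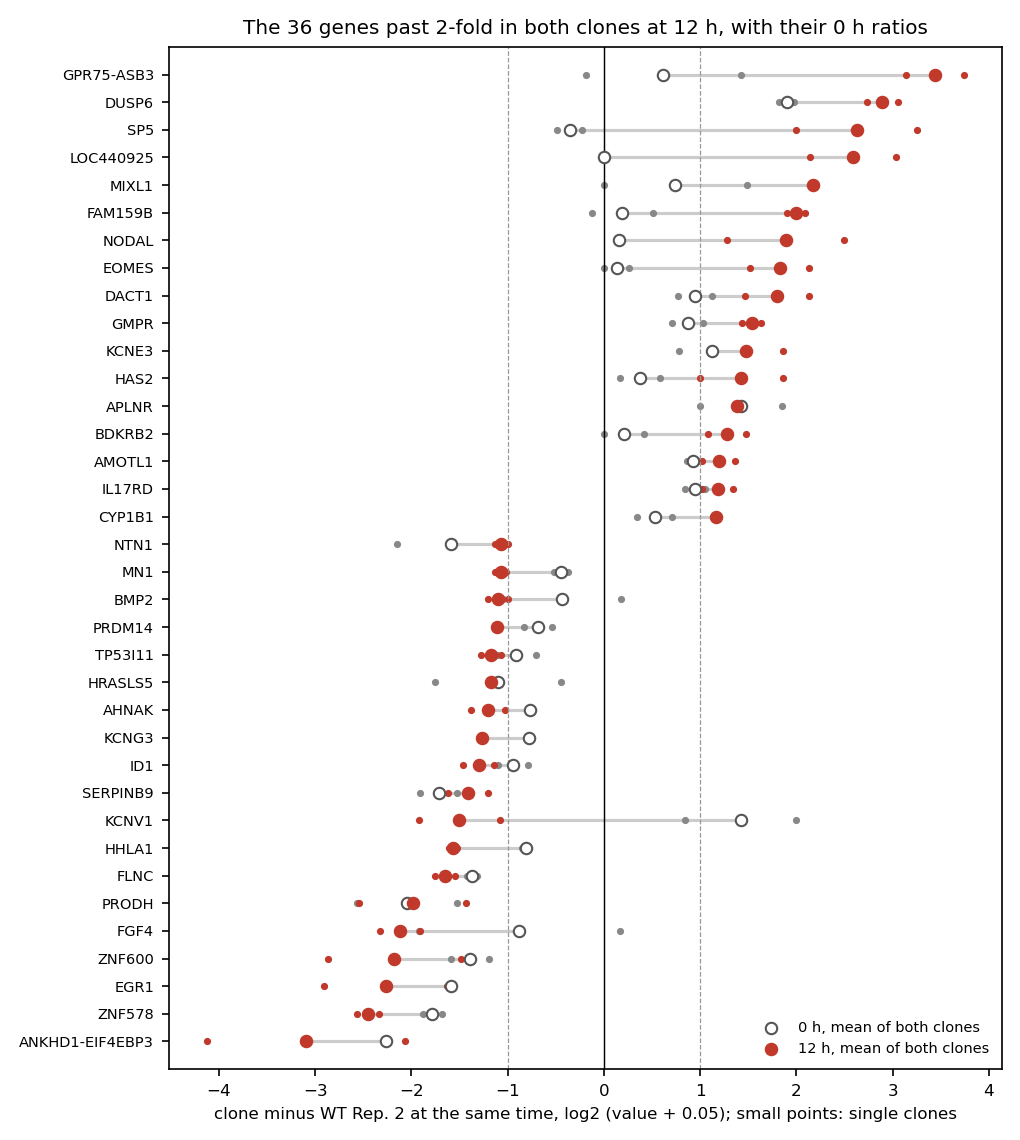
Log2 ratios of both clones against WT Rep. 2 at 0 h (open circles) and 12 h (red circles), each the mean of both clones with small points for single clones, for the 36 genes past 2-fold in both clones at 12 h; dashed lines mark 2-fold. SP5, NODAL and EOMES move from near 0 to beyond 1.8, whereas FLNC and PRODH have open and red circles close together.

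Each line was also set against its own 0 h library. The genes called at 12 h were chosen by the same 12 h values, so the overlaps with them are descriptions only. The change from 0 to 12 h exceeded that of WT Rep. 2 at least 2-fold in both clones for 14 genes, of which 6 were among the 17 higher genes: SP5, LOC440925, NODAL, EOMES, FAM159B and GPR75-ASB3. It fell short of WT Rep. 2 at least 2-fold in both clones for 11 genes, of which 1, KCNV1, was among the 19 lower genes. Genes outside the 17 and named after their values were seen include NKX1-2, a homeobox gene, which was 0.38 and 0.34 in the clones at 0 h and 1.18 and 1.24 at 12 h while WT Rep. 2 was 0.95 and 0.82. SLC39A8, a zinc and manganese importer, was 0.27 and 0.34 in the clones at 0 h and 0.69 and 0.92 at 12 h, with WT Rep. 2 at 0.33 and 0.36. GAD1, which makes GABA, was listed at 0 in both clones at 0 h and was 0.15 and 0.21 at 12 h, with WT Rep. 2 at 0.05 and 0.10.

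Some of the called genes are early Wnt3a targets. Of the 17 higher genes 10 were among the 68 genes raised at 12 h in the first WT series (13.7% of all 497), and of the 19 lower genes 3 were. Of the 12 genes that were at least 2-fold lower at 12 h in that series (2.41% of all 497), 0 were called higher and 2, FGF4 and ANKHD1-EIF4EBP3, were called lower. Over the 68 genes, 39 were higher and 16 lower in both clones at 12 h, and the median of the mean log2 ratio was 0.33, against 0.00 at 0 h. From 0 to 12 h, 0 of the 17 higher genes were 2-fold up in WT Rep. 2 and 7 in each clone, a contrast that choosing them by their 12 h values favours. The part of the single WT Rep. 2 library in these counts was not tested.

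The 12 h value as a share of each line's own highest value puts the first WT series beside the mutant experiment. For SP5 this share was 2.0% (WT Rep. 2), 9.1% (dZF1), 23.8% (dZF2) and 36.7% (first WT series). NODAL stood at 9.0%, 19.9%, 24.2% and 48.4% in the same order, EOMES at 3.0%, 7.2%, 9.1% and 24.9%, and DACT1 at 34.0%, 67.3%, 70.0% and 71.8%. For these 4 genes both clones lay between WT Rep. 2 and the first WT series by this share. The divisor differs between lines, so a lower share is not a lower level. On the scale of the WT Rep. 2 maximum SP5 at 12 h was 0.23 in dZF1 and 0.62 in dZF2. NODAL was 0.29 and 0.74 on that scale, and EOMES 0.18 and 0.30. Over the 17 higher genes the medians were 7.0%, 19.9%, 23.8% and 31.3%, both clones lay above WT Rep. 2 for 16 genes (all but GMPR), and both lay below the first WT series for 11. Over the 19 lower genes the medians were 87.0%, 34.3%, 32.1% and 25.4%, and WT Rep. 2 exceeded the first WT series for 18 of them. These genes were chosen by the 12 h values of WT Rep. 2 and of both clones, so the order of the lines is shaped by the choice and is given as a description.

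Across the other gene lists few members were called. Extracellular matrix genes were mostly slightly lower: of 18 measured, 11 were lower and 4 higher in both clones, HAS2 alone was called, and the median was -0.14. Fibronectin (FN1) was 0.70, 0.53 and 0.51. Of 12 ephrin, semaphorin and guidance genes 6 were higher and 2 lower, NTN1 was called lower, and the median was 0.23, with SLIT2 at 0.45, 0.79 and 0.92. Of 8 MYC and cell cycle genes none was called, and MYC was 0.67, 0.98 and 1.20. Of 6 retinoid genes CYP1B1 was called and the median was 0.36. None was called among 8 neural and epiblast factors (median -0.21), 7 interferon-inducible genes (median -0.13), 7 adhesion and cytoskeleton genes of the epithelial to mesenchymal change (median 0.01) or 3 NOTCH targets (median -0.03). In the SP/KLF family 3 of 10 genes were measured, and apart from SP5 neither KLF5 (0.40, 0.67 and 0.31) nor KLF8 (0.82, 0.80 and 0.47) was called. Relative to the own 0 h libraries the median changed sign for the neural (0.14), NOTCH (0.24), matrix (0.06), interferon (0.06), MYC (-0.09) and fibroblast (-0.09) lists.

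**Figure D5:**
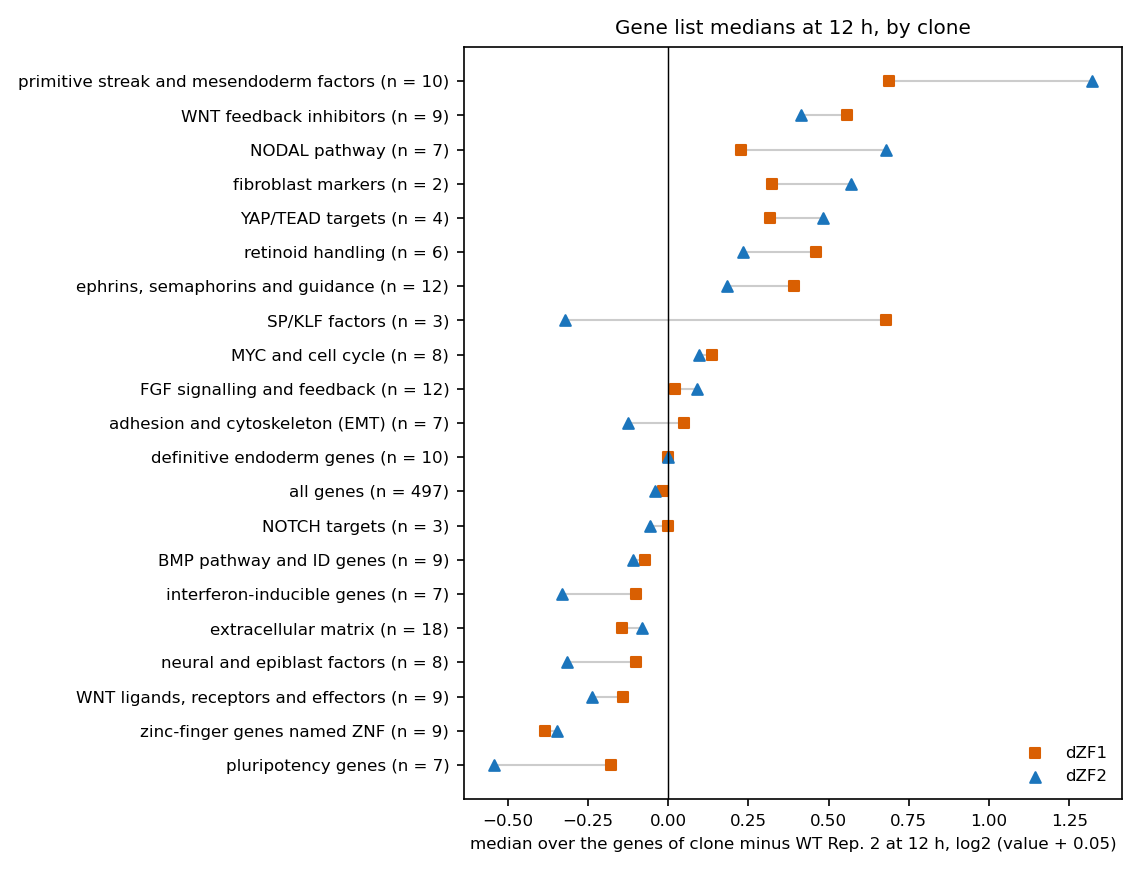
Median over the measured genes of each list (n in brackets) of the log2 ratio to WT Rep. 2 at 12 h, on the log2 (value + 0.05) scale, for dZF1 (squares) and dZF2 (triangles). Mesendoderm factors lie highest with 0.69 and 1.32, pluripotency genes at -0.18 and -0.54, and all 497 genes lie at -0.02 and -0.04. The lists were chosen with earlier results of these data known.

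The clones also differed from each other. At 12 h they stood at least 2-fold apart for 36 of 497 genes, called or not. The 95th percentile of the distance between them was 1.15 on the log2 scale. Opposite signs occurred for 72 of 497 genes at 12 h, and the largest distances between the clones were in C12orf34, PRDM1, FAM89A, T and ANKHD1-EIF4EBP3. C12orf34 was 0.65, 0.00 and 1.25 at 12 h, and dZF1 was also at 0 at 0 h. PRDM1, an endoderm and germ cell regulator also called BLIMP1, was above 0 only in dZF2, at 0.28. FAM89A was 0.26, 0.00 and 0.25. All 5 genes had a value of 0.01 or less in dZF1.

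Most of the higher genes were still higher later, and fewer of the lower genes were still lower. Of the 17 higher genes 14 were past 2-fold in both clones at 24 h and 7 at 48 h, and 17 and 12 of them stood above WT Rep. 2 in both. Over all 497 genes 52 (10.5%) and 31 (6.24%) were past 2-fold higher at these times, and 254 (51.1%) and 222 (44.7%) were higher by any size. Of the 19 lower genes 3 were past 2-fold in both clones at 24 h and 4 at 48 h, and 15 and 9 of them stood below WT Rep. 2 in both. Over all genes 14 (2.82%) and 16 (3.22%) were past 2-fold lower, and 145 (29.2%) and 179 (36.0%) were lower by any size, so higher calls outnumbered lower calls at both times in the table as a whole. At 24 h NODAL was 0.32, 1.46 and 3.06, and EOMES was 0.05, 0.94 and 1.90. BMP2 changed sides, with 1.00, 2.31 and 2.35 at 48 h.

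SP5 peaks are known from ChIP-Seq after 24 h of Wnt3a, a later time than the 12 h of the expression values set beside them. The sample labels name H1 cells for it, whereas the headers of the peak lists name H9, another hESC line, and which holds could not be settled. The 2 deposited lists use the same ChIP library and differ in the control. A peak summit lay within 2000 bases of the start site for 2 of the 15 higher genes that could be placed on GRCh37 (13.3%), 2 of the 19 lower genes (10.5%) and 23 of all 486 placed genes (4.73%). Among the higher genes these were MIXL1 and SP5. The MIXL1 summit lay 152 bases before the start with 95 tags and a false discovery rate (FDR) of 0%, and that of SP5 lay 241 bases before the start with 93 tags and an FDR of 0%, both in both lists. Within 10000 bases the lists add NODAL, with a summit 7495 bases inside the gene in an intron, 43 tags and an FDR of 46.04% in 1 list. The start was taken as the outermost annotated end of each gene, and starts of other transcripts were not examined. The paper shows SP5 binding near the start site of NODAL, so its distance here depends on that choice. The lists also add a second SP5 summit, 3205 bases before the start, with 40 tags and an FDR of 47.18% in 1 list. The lower genes were MN1, 330 bases before the start with 37 tags and an FDR of 47.04%, and TP53I11, 1853 bases inside with 27 tags and an FDR of 49.18%, each in 1 list. Of the 23 genes with a summit within 2000 bases, 10 were higher and 10 lower in both clones, and their median of the mean log2 ratio was -0.04, against -0.02 for the 463 others. AXIN2, NKD1, GPR37, HES1 and AMOTL2 have such a summit and were not called. In the 2 lists the FDR was 30.39% and 32.5% for AXIN2 and 46.94% and 61.17% for NKD1. It was 3.7% and 46.9% for GPR37, 27.81% and 70.81% for HES1, and 69.58% in 1 list for AMOTL2. By qPCR the paper reports AXIN2, AMOTL2 and GPR37 as upregulated in the mutant cells on Wnt3a.

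The 200 bases around the summits at MIXL1, SP5, NODAL and MN1 are shown because these are the called genes with the nearest or best supported peaks. They are from GRCh37, written 5′ to 3′ on the strand of the gene, with GGGCGG and GGGAGG, on either strand, in capitals. The GGGCGG hexamer is the core of the GC box that SP factors bind. The regions are chr1:226411067-226411266 (MIXL1, plus strand), chr2:171571506-171571705 (SP5, plus strand), chr10:72200112-72200311 (NODAL, minus strand) and chr22:28197974-28198173 (MN1, minus strand).
MIXL1: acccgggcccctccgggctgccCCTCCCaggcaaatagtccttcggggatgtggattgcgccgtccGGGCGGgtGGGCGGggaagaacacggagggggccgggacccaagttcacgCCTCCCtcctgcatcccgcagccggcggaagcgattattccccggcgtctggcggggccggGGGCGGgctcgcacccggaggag
SP5: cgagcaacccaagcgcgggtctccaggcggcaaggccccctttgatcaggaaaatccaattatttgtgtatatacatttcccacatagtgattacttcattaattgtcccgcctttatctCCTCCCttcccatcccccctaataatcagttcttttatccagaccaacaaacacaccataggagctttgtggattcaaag
NODAL: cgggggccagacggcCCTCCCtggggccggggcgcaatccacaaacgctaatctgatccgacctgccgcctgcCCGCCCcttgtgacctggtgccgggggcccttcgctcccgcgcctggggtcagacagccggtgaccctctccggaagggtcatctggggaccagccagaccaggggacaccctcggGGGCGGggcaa
MN1: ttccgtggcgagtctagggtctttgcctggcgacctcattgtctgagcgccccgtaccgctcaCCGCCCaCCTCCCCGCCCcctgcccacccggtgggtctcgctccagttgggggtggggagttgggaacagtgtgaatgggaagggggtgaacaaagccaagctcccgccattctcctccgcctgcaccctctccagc

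The MIXL1 window holds 3 GGGCGG and 2 GGGAGG hexamers, the NODAL window 2 and 1, and the MN1 window 2 and 1, where a GGGAGG and a GGGCGG overlap by a base. The SP5 window shown holds 0 GGGCGG and 1 GGGAGG and has a GC content of 45.5%, against 73.5% at MIXL1, 72.5% at NODAL and 66.0% at MN1. The window of the second SP5 summit, 3205 bases before the start and not shown, holds 2 GGGCGG and 0 GGGAGG with a GC content of 60.5%. Of the 804 distinct summits on the main chromosomes when the lists are pooled, 36.3% have GGGCGG and 47.4% have GGGAGG within such a window. Of 1608 windows placed 2000 bases to either side 6.28% and 31.8% do. The MIXL1 and MN1 windows overlap no annotated gene, and the SP5 window lies within the long noncoding RNA gene ERICH2-DT on the other strand, outside its exons.

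The called genes spanned a wide range of expression. In the first WT series the highest RPKM of the 17 higher genes ranged from 4.6 to 309.1 with a median of 50.0, that of the 19 lower genes from 4.9 to 301.6 with a median of 10.9, and the median of all 497 genes was 23.1. Below 10 RPKM were 2 of the higher genes, 8 of the lower genes and 92 of all genes. Values in the mutant table are rounded to 2 decimals, and with each value moved by 0.005 against the call 13 of the 17 higher and 14 of the 19 lower genes remained called.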

How the data were processed

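RNA-Seq of ribosomal RNA-depleted total RNA was measured in WT Rep. 2, dZF1 and dZF2 at 0, 12, 24 and 48 h, and in a first WT series, with 1 library each. The authors aligned reads to hg19 with TopHat and obtained RPKM with Cuffdiff; the submitters' processing notes also name Bowtie 0.12.7 and SAMtools 0.1.12a. In the deposited mutant table, rounded to 2 decimals, WT Rep. 2 values are a fraction (each RPKM over the largest of its 4) and clone values a ratio with the same divisor. Deposited tables of the first WT series give RPKM to 1 decimal and a fraction of the maximum. Depth is not given, so no counting error can be stated. For ChIP-Seq the authors deposited peaks from MACS 1.4.2, each with a count of tags, a score for its p-value, a fold enrichment and an FDR in percent. Columns of fractions for a shortened gene list were not used.

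Samples were grouped by their labels. Log2 ratios used a pseudocount of 0.05 (1 for RPKM), and a gene was called at 2-fold in both clones. No model was fitted, and ratios were computed for all 497 genes with no filter. The peak comparison used the 486 placed genes, and an alternative set a minimum value. Genes were placed with GENCODE release 44 mapped to GRCh37, using current symbols and unique RefSeq synonyms. Named were SP5, members of 21 gene lists, the 10 largest and 10 smallest ratios among called genes, called genes near WT Rep. 2 or already called at 0 h (up to 10), and the 5 genes on which the clones differed most; the other called genes, the neighbours of the threshold and 3 genes compared with their own 0 h library were named after their values were seen. Members and lists were chosen with earlier results of these data known. Alternatives were other pseudocounts, each clone alone, a minimum value, centring, changes from 0 h and 1.5-fold. The steps were tested on simulated data, with changes larger than 2-fold planted only in genes well above 0 in WT Rep. 2 at 12 h. Changes near the threshold, and changes in genes near 0 in that library such as SP5, were not covered. Python 3.11.15, numpy 2.4.6, pandas 2.3.3 and matplotlib 3.10.9 were used.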

Additional observations from a re-analysis of the deposited data

Results flagged for a closer look

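KCNV1, a voltage-gated potassium channel subunit, changed in opposite directions between 0 and 12 h. Its log2 (value + 0.05) change was 1.93 in WT Rep. 2, from 0.00 to 0.14, against -1.15 in dZF1, from 0.15 to 0.04, and -0.85 in dZF2, from 0.04 to 0.00. The difference was not tested, since each line has 1 library at each time. The highest RPKM of KCNV1 in the first WT series was 4.9, and its RPKM there was 0.3 at 0 h and 0.2 at 12 h.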

How the results depend on the processing

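No paired analysis was possible because each line has 1 library at each time and the replicate numbers do not pair the lines. With a pseudocount of 0.2, 5 of the 17 higher and 9 of the 19 lower genes were called, and SP5, NODAL, EOMES and MIXL1 were not among them. That setting left 5 genes already called at 0 h in place of 10, and 1 near WT Rep. 2 at 0 h in place of 5. With a pseudocount of 0.01 the calls were 22 and 28. At 1.5-fold they were 50 and 58. With a value of at least 0.2 in some library they were 15 and 18, and after centring 18 and 16. Against each line's own 0 h library they were 14, of which 6 were among the 17, and 11, of which 1 was among the 19. Single clones gave 29 to 33 higher and 34 to 40 lower genes, 15 to 31 already called at 0 h and 18 to 23 near WT Rep. 2 at 0 h. Chosen after seeing the data were the share of each line's own maximum, the 0 h library of WT Rep. 2 as reference, rounding against the call, and summits within 10000 bases. With the 0 h library as reference 32 genes were higher, 15 of them among the 17, and 18 were lower, 12 of them among the 19.

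Relative to the own 0 h libraries the mean log2 ratio changed sign for APLNR (-0.05), NTN1 (0.53), PRODH (0.06) and SERPINB9 (0.30). The median of the 12 genes lowered in the first WT series moved from -0.05 to -0.36 by that measure. List medians became 1.17 (SP/KLF), -0.05 (WNT feedback), -0.01 (WNT ligands and receptors), -0.07 (definitive endoderm), -0.01 (BMP and ID), 0.14 (neural), 0.24 (NOTCH), 0.59 (YAP/TEAD), 0.06 (matrix), 0.52 (retinoid), 0.06 (interferon), -0.09 (MYC), -0.12 (ZNF) and -0.09 (fibroblast). With a pseudocount of 0.2 they were 0.35 for WNT feedback, 0.30 for mesendoderm and -0.30 for ZNF genes, and with 0.01 mesendoderm was at 1.76. With values of at least 0.2 they were 0.64 for WNT feedback, 0.01 for definitive endoderm, -0.28 for FGF and 0.53 for retinoid genes. Centring gave 0.03 for definitive endoderm, -0.01 for BMP and ID, 0.17 for MYC, -0.31 for ZNF and 0.01 for all genes.

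Single clones ranged from -0.04 to -0.02 for all genes, 0.23 to 0.35 for the 68 genes raised in the first WT series, -0.24 to -0.14 for WNT ligands and receptors, 0.69 to 1.32 for mesendoderm, -0.11 to -0.07 for BMP and ID, -0.14 to -0.08 for matrix, -0.13 to 0.05 for adhesion, 0.18 to 0.39 for guidance, -0.33 to -0.10 for interferon, 0.10 to 0.14 for MYC and -0.38 to -0.35 for ZNF genes. The median of the 68 genes was 0.22 with a pseudocount of 0.2. Their change from 0 to 12 h was then 0.12 in WT Rep. 2, 0.28 in dZF1, 0.37 in dZF2 and 0.96 in the first WT series, where a pseudocount of 0.01 gave 1.80. The cause of these shifts was not tested. Calls thus depend on the pseudocount, and not only at values below 0.2. AMOTL1, CYP1B1, PRDM14 and ID1 were above 0.2 in all 3 libraries at 12 h and were not called with a pseudocount of 0.2. Without depth or replicate libraries neither counting error nor the spread within a line can be given.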
